A study of Homo sapiens with 6 samples.

Results

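The genes of the G1 cyclin, RB and E2F axis were followed in SiHa cells, a human cell line from a squamous carcinoma of the cervix with integrated papillomavirus DNA. The group has 10 genes, chosen by name as the main parts of this axis: CCND1, CCND3, CCNE1, CCNE2, CDK2, CDK4, CDK6, CDKN2A, RB1 and E2F1. Earlier results of these data were known when the genes and the lists below were chosen. These are 10 of the 35544 loci in the deposited table, and each stood on a row of its own. The polyA RNA came from 3 libraries of cells transfected with a plasmid that carries hsa_circ_0005358, a circular RNA, and from 3 libraries of cells given a vector plasmid, all collected 72 h after transfection. Nothing in the labels says whether libraries of a group come from different cultures. The p-values therefore reflect the spread among these 6 libraries alone, and part of it may be technical. In RNA from a whole culture, fewer cells in a given state and less RNA per cell cannot be told apart.

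D-type cyclins, made by CCND1, CCND2 and CCND3, bind the kinases CDK4 and CDK6, which begin to phosphorylate the retinoblastoma protein RB. Cyclin E with CDK2 completes that step, E2F factors are released, and the genes for DNA replication are transcribed. The INK4 protein p16, made from CDKN2A, blocks CDK4 and CDK6. In papillomavirus-positive cervical cells the viral E7 protein disables RB, and p16 is typically abundant.

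Values are FPKM, fragment counts divided by transcript length and by the library total, so levels of different genes can be set side by side. A locus was tested when it had at least 1 FPKM in at least 3 of the 6 libraries. Fold changes are differences of mean log2(FPKM + 1), circ_0005358 minus vector, which understate the change of low genes. Adjusted p-values are from limma with Benjamini-Hochberg adjustment over all 10295 tested loci, and a gene is said to have risen or fallen when its adjusted p was under 0.05. FPKM sums lay between 138864 and 145278, and the depth implied by the value of 1 fragment was 71.3% of the deepest library in circ_0005358 replicate 2 and at least 93.8% in the other libraries. Vector replicate 3 listed 27803 loci above 0, against 23227 to 23834 in the other libraries. Of the epithelial markers, 7 of 8 were tested and 6 were lower with the circular RNA plasmid. Their summed level lay between 618 and 696 FPKM in circ_0005358 libraries and between 1269 and 1338 FPKM in vector libraries. Of 5 leukocyte markers, CD14 alone was above 1 FPKM and PTPRC was at most 0.0605 FPKM in any library. The summed level of these 5 was 1.48, 14.5 and 16.4 FPKM in circ_0005358 libraries and 10.4 to 13.4 FPKM in vector libraries. The squamous marker TP63 was at most 0.254 FPKM. Of 5 fibroblast markers LUM alone was tested, and it was lower, with a summed level of 1.85 to 2.34 FPKM in circ_0005358 libraries and 6.97 to 10.4 FPKM in vector libraries. The summed level of 4 endothelial markers was at most 0.692 FPKM. The part of these shifts in the results was not tested.

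Of the 10 genes, 9 passed the filter and 3 of them passed the test: CCND3 rose, and CCNE1 and CDK6 fell. CDK6 passed the filter through its 3 vector libraries and circ_0005358 replicate 1, the other libraries being under 1 FPKM. Over all tested loci, 11.4% passed the test, 6.41% higher and 4.96% lower. In 3 of the 9 genes the groups did not overlap, a share of 33.3% that is close to the 35.8% of all tested loci. The median log2 fold change of the 9 genes was 0.02, beside 0.02 over all tested loci.

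The order of levels ran over a wide range. In circ_0005358 libraries CDK4 (38.1 ± 3.27 FPKM) and CDK2 (36.2 ± 0.416) were highest, then RB1 (21.6 ± 5.31), E2F1 (20.3 ± 6.64) and CDKN2A (17.6 ± 4.12), then CCND3 (7.93 ± 0.564), CCNE1 (7.66 ± 0.132) and CCNE2 (5.80 ± 0.955), with CDK6 (1.002 ± 0.117) and CCND1 (0.324 ± 0.180) lowest (SD, n = 3). In vector libraries the means were 35.6 ± 1.40 FPKM for CDK2, 31.9 ± 3.68 for CDK4, 27.7 ± 6.99 for RB1, 21.6 ± 6.66 for E2F1, 15.8 ± 1.46 for CDKN2A, 10.2 ± 1.03 for CCNE1, 6.08 ± 0.261 for CCND3, 4.97 ± 0.612 for CCNE2, 2.29 ± 0.192 for CDK6 and 0.585 ± 0.268 for CCND1 (SD, n = 3). Library values of CDK2 and CDK4 overlapped in both groups, as did those of RB1 and E2F1 and those of E2F1 and CDKN2A. CCND3 and CCNE1 overlapped in circ_0005358 libraries, whereas in vector libraries every CCNE1 value lay above every CCND3 value.

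**Figure D1:**
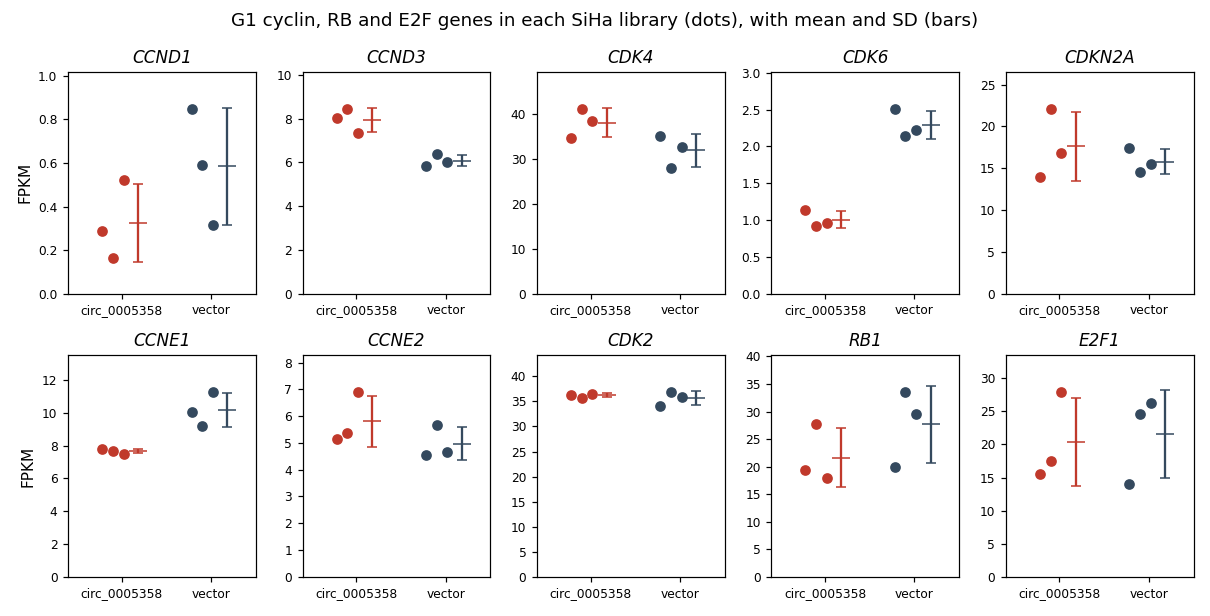
FPKM of the 10 genes in each library, with circ_0005358 left of vector and bars for the mean and SD of 3 libraries. CCND3 is higher in all circ_0005358 libraries, CCNE1 and CDK6 are lower in all of them, and the groups of the other genes overlap.

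Among the D cyclins, CCND3 (chr6:41934933-42050357, minus strand, GRCh38) carried nearly all of the RNA. CCND3 had 8.01, 8.45 and 7.33 FPKM in circ_0005358 libraries and 5.85, 6.36 and 6.03 FPKM in vector libraries. Every circ_0005358 value lay above every vector value. The log2 fold change was 0.33 ± 0.07 (SE), with a 95% interval of 0.16 to 0.51 and an adjusted p of 0.0410 in limma. The ratio of mean FPKM was 1.30. The exact two-sided permutation test gave a p of 0.1, the smallest that 3 against 3 values allow. The call rested on every library: when any 1 of the 6 was left out, the adjusted p lay between 0.0601 and 0.132 and the log2 fold change between 0.29 and 0.38. It also ended when the libraries were rescaled to their mean sum (adjusted p 0.0530).

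CCND1 (chr11:69641087-69654474, plus strand), the D cyclin whose gene is amplified in many squamous carcinomas, did not reach the filter. It had 0.287, 0.166 and 0.520 FPKM in circ_0005358 libraries and 0.849, 0.592 and 0.313 FPKM in vector libraries. The groups overlapped, and the exact two-sided permutation test gave a p of 0.2. CCND2 was at most 0.111 FPKM in any library. CCND3 thus made up 95.8 ± 2.40% of the summed D cyclin FPKM in circ_0005358 libraries and 90.6 ± 3.20% in vector libraries (SD, n = 3), shares that overlapped between the groups.

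The kinase partners of the D cyclins differed from each other. CDK6 (chr7:92604921-92836594, minus strand) had 1.14, 0.917 and 0.953 FPKM in circ_0005358 libraries and 2.51, 2.15 and 2.23 FPKM in vector libraries. All circ_0005358 values were under the lowest vector value, and the ratio of mean FPKM was 0.437. On the log2 scale CDK6 fell by 0.72 ± 0.08 (SE), with a 95% interval of -0.92 to -0.52 and a limma adjusted p of 0.00548. At this low level the log2(FPKM + 1) scale gives a smaller change than the ratio. The call was kept when any 1 library was left out (adjusted p 0.0162 to 0.0301), and it ended (adjusted p 0.0828) with both vector replicate 3 and circ_0005358 replicate 2 omitted. The level of CDK6 stood at the 12.04th percentile of tested loci.

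CDK4 (chr12:57747727-57756013, minus strand) stood at the 92.9th percentile. It had 34.7, 41.2 and 38.5 FPKM in circ_0005358 libraries and 35.2, 27.96 and 32.7 FPKM in vector libraries. The groups overlapped through circ_0005358 replicate 1 and vector replicate 1. Its log2 fold change of 0.25 had a 95% interval of -0.02 to 0.52 and a limma adjusted p of 0.211. CDK4 exceeded CDK6 by a factor of 38.6 ± 7.35 in circ_0005358 libraries and of 13.9 ± 0.824 in vector libraries (SD, n = 3), without overlap. CDK6 contributed 2.59 ± 0.518% of the summed FPKM of both kinases in circ_0005358 libraries and 6.72 ± 0.376% in vector libraries. The summed FPKM itself, 39.1 ± 3.15 in circ_0005358 libraries and 34.2 ± 3.85 in vector libraries, overlapped between the groups.

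The 50 tested loci nearest to CDK6 had a median log2 fold change of 0.19, with 6 called higher and 1 called lower. The corresponding medians were -0.04 around CCND3 (1 higher, 0 lower) and -0.04 around CCNE1 (0 higher, 2 lower).

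CDKN2A (chr9:21967753-21995301, minus strand) encodes p16 and, from another first exon and reading frame, the MDM2 inhibitor ARF. Its row joins 13 transcripts, so both products are read together. CDKN2A had 13.98, 22.1 and 16.9 FPKM in circ_0005358 libraries and 17.4, 14.5 and 15.5 FPKM in vector libraries. The circ_0005358 libraries held both the lowest and the highest value. The log2 fold change was 0.13, with a 95% interval of -0.30 to 0.56 and a limma adjusted p of 0.676. Its ratio to the summed FPKM of CDK4 and CDK6 was 0.447 ± 0.0696 in circ_0005358 libraries and 0.462 ± 0.0191 in vector libraries (SD, n = 3).

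None of the other 3 INK4 genes, which encode inhibitors of the same kinases, passed the limma test, and 0 had an unadjusted p under 0.05. CDKN2B had 7.27, 8.85 and 0.625 FPKM in circ_0005358 libraries and 11.6, 10.8 and 11.2 FPKM in vector libraries (log2 fold change -1.26, limma adjusted p 0.320). All circ_0005358 values were lower, but replicate 3 stood far from the other libraries of its group. CDKN2C averaged 2.04 ± 0.165 FPKM in circ_0005358 libraries and 1.84 ± 0.314 FPKM in vector libraries, and CDKN2D averaged 4.03 ± 1.58 and 3.49 ± 2.13 FPKM in these groups (SD, n = 3).

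The 3 CIP/KIP inhibitors of cyclin E with CDK2 varied widely between libraries, and 0 had an unadjusted p under 0.05 in limma. CDKN1A, the p53 target that encodes p21, had 31.3, 37.5 and 33.1 FPKM in circ_0005358 libraries and 25.9, 84.2 and 88.5 FPKM in vector libraries. CDKN1C, which encodes p57, had 3.43, 3.25 and 3.46 FPKM in circ_0005358 libraries and 2.86, 7.23 and 6.59 FPKM in vector libraries. In both genes vector replicate 1 lay below every circ_0005358 library and the other vector libraries lay above. The limma adjusted p was 0.385 for CDKN1A and 0.346 for CDKN1C, and without vector replicate 1 it was 0.00827 and 0.0114, with both genes lower. No other omission of 1 library gave a call, and the limma adjusted p reached 0.644 for CDKN1A and 0.618 for CDKN1C. CDKN1B, which encodes p27, had 16.2, 3.58 and 13.5 FPKM in circ_0005358 libraries and 2.56, 13.5 and 10.7 FPKM in vector libraries (limma adjusted p 0.832).

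Of the E cyclins, CCNE1 (chr19:29811898-29824308, plus strand) fell. CCNE1 had 7.78, 7.69 and 7.52 FPKM in circ_0005358 libraries and 10.1, 9.22 and 11.3 FPKM in vector libraries. The circ_0005358 values lay close together and under every vector value. The ratio of mean FPKM was 0.752. CCNE1 fell by 0.37 ± 0.08 on the log2 scale (SE), with a 95% interval of -0.57 to -0.16 and a limma adjusted p of 0.0458. As for CCND3, the call ended when any 1 library was left out, with an adjusted p between 0.0564 and 0.132 and a log2 fold change between -0.43 and -0.30.

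CCNE2 (chr8:94879770-94896678, minus strand), the other E cyclin gene, had 5.13, 5.38 and 6.90 FPKM in circ_0005358 libraries and 4.56, 5.67 and 4.67 FPKM in vector libraries. The groups overlapped, and the log2 fold change of 0.18 had a 95% interval of -0.14 to 0.51 and a limma adjusted p of 0.425. CCNE1 supplied 57.1 ± 4.32% of the summed E cyclin FPKM in circ_0005358 libraries and 67.2 ± 4.63% in vector libraries, without overlap. The summed FPKM of both genes was 13.5 ± 0.826 in circ_0005358 libraries and 15.2 ± 0.687 in vector libraries (SD, n = 3).

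CDK2 (chr12:55966769-55972784, plus strand), the kinase partner of the E cyclins, had the narrowest interval. It had 36.4, 35.8 and 36.6 FPKM in circ_0005358 libraries and 34.1, 36.9 and 35.9 FPKM in vector libraries. The log2 fold change was 0.02, with a 95% interval of -0.10 to 0.15 and a limma adjusted p of 0.794. The interval leaves room for a fold of 0.933 to 1.11 on FPKM + 1. CCNA2, which encodes the cyclin A that joins CDK2 in S phase, had 43.0, 49.3 and 33.5 FPKM in circ_0005358 libraries and 27.0, 29.9 and 25.4 FPKM in vector libraries. Its groups did not overlap, but its limma adjusted p was 0.0722. With 1 library left out, that p lay between 0.0336 (circ_0005358 replicate 3) and 0.182, and passed in that 1 omission alone.

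**Figure D2:**
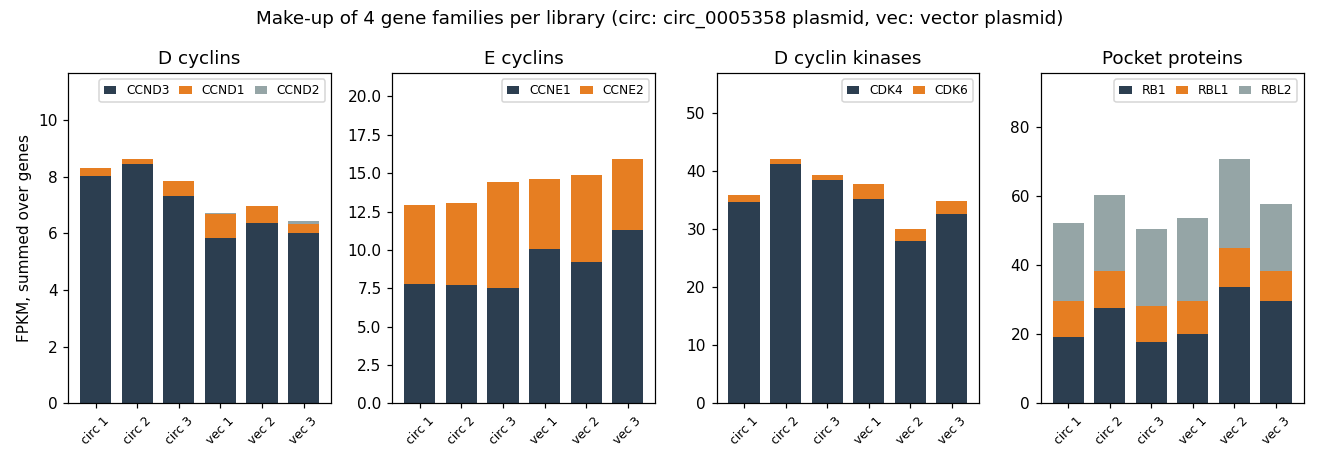
FPKM summed over the D cyclins, E cyclins, D cyclin kinases and pocket proteins in each library, with segments for the single genes and circ_0005358 libraries at left. CCND3 and CDK4 fill most of their bars, and the CCNE1 segment is shorter in every circ_0005358 library.

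RB1 (chr13:48303726-48599436, plus strand) had 19.3, 27.7 and 17.9 FPKM in circ_0005358 libraries and 20.0, 33.5 and 29.6 FPKM in vector libraries. The groups overlapped through circ_0005358 replicate 2 and vector replicate 1. The log2 fold change of -0.34 had a 95% interval of -0.96 to 0.28 and a limma adjusted p of 0.447. RBL1 and RBL2 encode the related pocket proteins p107 and p130, and neither passed the test. RBL1 averaged 10.4 ± 0.197 FPKM in circ_0005358 libraries and 9.88 ± 1.39 FPKM in vector libraries, and RBL2 averaged 22.3 ± 0.433 and 23.1 ± 3.39 FPKM in these groups (SD, n = 3). RB1 made up 39.4 ± 5.71% of the pocket protein FPKM in circ_0005358 libraries and 45.3 ± 7.34% in vector libraries.

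E2F1 (chr20:33675683-33686404, minus strand) had the widest interval of the 9 tested genes. It had 15.6, 17.5 and 27.9 FPKM in circ_0005358 libraries and 13.97, 24.6 and 26.2 FPKM in vector libraries. Replicate 3 was highest in both groups and replicate 1 was lowest in both. The log2 fold change was -0.08, with a 95% interval of -0.87 to 0.71 and a limma adjusted p of 0.901.

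None of the 8 tested genes among the other E2F and DP factors passed the limma test, and 0 had an unadjusted p under 0.05. E2F4, a repressor in quiescent cells, was the most abundant, with 40.7, 43.8 and 60.3 FPKM in circ_0005358 libraries and 42.8, 42.5 and 32.9 FPKM in vector libraries (limma adjusted p 0.404). The activators E2F2 and E2F3 averaged 3.81 ± 1.61 and 4.73 ± 1.46 FPKM in circ_0005358 libraries, against 3.13 ± 1.65 and 6.03 ± 0.742 FPKM in vector libraries. Of the repressors, E2F6 averaged 3.50 ± 0.397 and E2F8 3.92 ± 0.228 FPKM in circ_0005358 libraries, against 3.28 ± 0.303 and 3.45 ± 0.521 FPKM in vector libraries. E2F7 had 15.1, 15.0 and 7.64 FPKM in circ_0005358 libraries and 8.43, 19.5 and 19.0 FPKM in vector libraries. TFDP1 and TFDP2, whose products pair with E2F factors, averaged 31.2 ± 0.457 and 8.34 ± 1.42 FPKM in circ_0005358 libraries, against 32.2 ± 1.02 and 9.15 ± 1.09 FPKM in vector libraries (SD, n = 3). E2F5 was at most 0.237 FPKM in any library and was not tested. Vector replicate 1 was the lowest vector library for RB1, E2F1, E2F2, E2F7, E2F8, CDKN2C, CDKN2D, CDKN1A, CDKN1B and CDKN1C, a set gathered after the values were seen. It was the highest vector library for CDKN2A, CDKN2B, E2F4, E2F6, TFDP1, CDK4 and CCND1. The share of all tested loci in which it was lowest or highest was not computed.

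**Figure D3:**
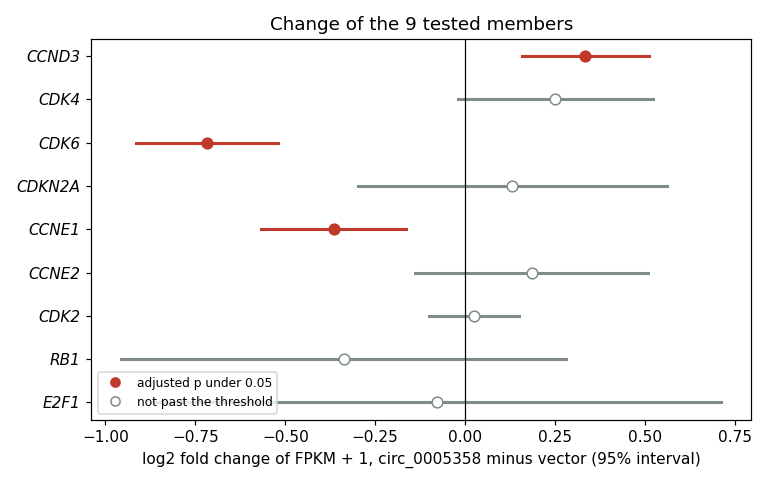
Log2 fold change of FPKM + 1 (circ_0005358 minus vector) of the 9 tested genes with its 95% interval, filled where the adjusted p was under 0.05. The intervals of CCND3, CDK6 and CCNE1 exclude 0, and those of RB1 and E2F1 are the widest.

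Start site regions of E2F1 and CCNE1 are shown because both genes are known E2F targets, and CCNE1 fell here while E2F1 did not pass the test. The windows run from 250 bases before to 50 bases after the start (RefSeq, GRCh38.p14). Capitals mark E2F octamers in E2F1 (chr20:33686336-33686635, minus strand) and the GC box hexamer GGGCGG or its reverse complement in CCNE1 (chr19:29811741-29812040, plus strand).
E2F1: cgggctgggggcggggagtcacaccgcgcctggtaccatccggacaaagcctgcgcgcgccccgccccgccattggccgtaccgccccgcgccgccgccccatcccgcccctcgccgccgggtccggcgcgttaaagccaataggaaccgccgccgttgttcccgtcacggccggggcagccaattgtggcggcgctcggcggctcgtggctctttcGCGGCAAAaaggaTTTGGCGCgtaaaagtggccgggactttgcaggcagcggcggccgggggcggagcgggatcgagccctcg
CCNE1: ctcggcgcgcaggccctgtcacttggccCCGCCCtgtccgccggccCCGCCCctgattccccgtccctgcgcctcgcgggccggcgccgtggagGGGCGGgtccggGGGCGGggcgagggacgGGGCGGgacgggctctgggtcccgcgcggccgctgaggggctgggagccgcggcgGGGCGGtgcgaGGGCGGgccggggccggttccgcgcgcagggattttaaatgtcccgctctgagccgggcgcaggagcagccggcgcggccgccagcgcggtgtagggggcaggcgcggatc

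The octamers searched, on both strands, were TTTCCCGC, TTTCGCGC, TTTGCCGC and TTTGGCGC, and 3.31% of all 35116 windows held at least 1 of them. E2F1 held 2, beginning 33 and 20 bases before the start. The CCNE1 window held none of these octamers and 7 GC box hexamers, a motif present in 45% of all windows. The E2F1 window held 6 of these hexamers, not marked above, and 6 of the 7 genes of the axis with a window held at least 1. Of the 10 genes, 7 had a window, and E2F1 was the one with an octamer. CCND1, CCNE2 and CDK2 had no entry. A match describes the letters and not a bound site.

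Among 35 further genes of the G1/S E2F target list, which holds genes of DNA replication, nucleotide supply, repair, chromatin and the cell cycle, 31 had a row of their own and were tested. Of these, 8 rose, 0 fell and 23 did not pass the limma test, with 13 higher and 0 lower at an unadjusted p under 0.05 and a median log2 fold change of 0.16. The share of all tested loci that rose, at an adjusted p under 0.05, was 6.41%. It can be set beside the 8 and not beside the 13, since the share at an unadjusted p was not computed. The list was chosen with earlier results of these data known. CCNE1, also a gene of that list, fell. The helicase subunits MCM6, MCM4 and MCM7 had log2 fold changes of 0.82, 0.62 and 0.50, with limma adjusted p-values of 0.00185, 0.00398 and 0.00237.

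The origin recognition gene ORC1 had 14.5, 13.1 and 12.7 FPKM in circ_0005358 libraries and 9.11, 8.91 and 9.03 FPKM in vector libraries (log2 fold change 0.53, limma adjusted p 0.00839). MCM5, another helicase subunit, had 26.6, 31.4 and 27.9 FPKM in circ_0005358 libraries and 19.2, 19.7 and 19.2 FPKM in vector libraries (0.54, limma adjusted p 0.0107). CDC45, which joins the helicase at firing origins, had 14.1, 13.9 and 14.6 FPKM in circ_0005358 libraries and 11.1, 10.9 and 11.04 FPKM in vector libraries (0.34, limma adjusted p 0.0124). In each of these genes every circ_0005358 library was above every vector library. Groups without overlap, in either direction, were found in 35.8% of all tested loci. The chromatin assembly gene CHAF1A (log2 fold change 0.31, limma adjusted p 0.0400) and the DNA ligase gene LIG1 (0.49, limma adjusted p 0.0451) also rose. MCM6, MCM7, MCM4 and ORC1 kept their calls when any 1 library was left out. With vector replicate 3 and circ_0005358 replicate 2 omitted together, MCM6 alone of the list was called, and the limma adjusted p was 0.0517 for MCM7, 0.0738 for MCM4 and 0.0949 for ORC1. MCM5 lost its call without vector replicate 1, CDC45 lost it in 3 of the 6 omissions, and CHAF1A and LIG1 lost it in all 6.

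A stretch before the MCM6 start and a stretch across the MCM7 start are shown beside those of E2F1 and CCNE1 because both genes rose and both hold the octamers, in capitals (RefSeq, GRCh38.p14, chr2:135876502-135876615 and chr7:100101369-100101436, both minus strand).
MCM6: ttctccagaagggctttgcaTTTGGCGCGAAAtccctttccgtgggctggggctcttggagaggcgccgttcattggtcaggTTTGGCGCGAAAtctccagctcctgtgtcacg
MCM7: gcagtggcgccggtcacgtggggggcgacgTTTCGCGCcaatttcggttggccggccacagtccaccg
In MCM6 the octamers overlap in 2 runs and give 4 matches, beginning 152, 148, 90 and 86 bases before the start. MCM7 has 1 match in the stretch shown, 9 bases before the start, and another at 187. Of the 30 genes of that list with a window, 17 held an octamer in at least 1 window. Of those 17, MCM6, MCM7 and LIG1 rose, and the others did not pass the limma test. MCM2, MCM3, PCNA, CDC6 and CDT1 are among these others. MCM4, MCM5, ORC1, CDC45 and CHAF1A rose and are not among the 17. Since 30 of the 35 genes had a window, a gene outside the 17 may lack a window rather than an octamer. MCM6 and MCM7 were thus picked for both traits, and a link between octamer and change was not tested.

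Over all 101 tested genes of the pathway lists outside the 10, 10 rose and 3 fell, and the median log2 fold change was 0.03. The share called was 12.9%, close to the 11.4% of all tested loci. These 101 include the G1/S E2F targets, which held 8 of the 10 that rose. The other parts of the pathway were mixed: CUL1 and FOXM1 rose, and MYBL2, UBR4 and UBE3A fell. CUL1, the scaffold of the SCF ligase that degrades p27 and cyclin E, had 44.0, 38.7 and 45.3 FPKM in circ_0005358 libraries and 28.9, 29.7 and 27.6 FPKM in vector libraries (0.55, limma adjusted p 0.0114). That call ended without vector replicate 1 (limma adjusted p 0.0506). The SCF substrate receptors SKP2, at 134 ± 32.7 FPKM in circ_0005358 libraries and 112 ± 13.4 FPKM in vector libraries, and FBXW7, at 1.25 ± 0.0702 and 1.16 ± 0.101 FPKM in these groups, did not pass (SD, n = 3).

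MYBL2, whose product joins the MuvB core of the DREAM complex to activate mitotic genes, had 70.3, 81.8 and 76.6 FPKM in circ_0005358 libraries and 95.4, 95.6 and 104 FPKM in vector libraries, and fell by 0.36 on the log2 scale (limma adjusted p 0.0372). FOXM1, a transcription factor of the same mitotic genes, had 35.03, 37.4 and 34.4 FPKM in circ_0005358 libraries and 27.99, 29.03 and 28.5 FPKM in vector libraries, and rose by 0.31 (limma adjusted p 0.0225). Neither gene's groups overlapped, and each call was lost in 5 of the 6 omissions of a library. The DREAM subunit genes LIN52 (log2 fold change -0.96, limma adjusted p 0.163) and RBBP4 (-0.14, limma adjusted p 0.362) did not pass. Of 12 tested G2 and mitosis genes FOXM1 alone passed, beside 11.4% of all tested loci. CCNB2 and BUB1 had log2 fold changes of 0.23 and 0.15.

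Of the 6 RB corepressor genes none passed in limma (1 at an unadjusted p under 0.05), with ARID4A at 0.20 and KDM5A at -0.11. The CDK activating kinase gene CDK7 (-0.31) and the phosphatase gene CDC25A (0.09) did not pass, and 0 of the 3 tested genes of that list had an unadjusted p under 0.05 in limma. Of 13 transcription factor genes known to act at CCND1 none passed in limma, and EGR1 was the 1 gene with an unadjusted p under 0.05. EGR1 had 5.31, 7.14 and 5.40 FPKM in circ_0005358 libraries and 0.222, 0.372 and 3.80 FPKM in vector libraries, with a limma adjusted p of 0.104. With 1 library left out, that p lay between 0.00595 (vector replicate 3) and 0.253, and passed in that 1 omission alone. ETS1 had a log2 fold change of 0.23.

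Of 8 genes for host partners of the papillomavirus proteins E6 and E7, 2 fell, a higher share than the 4.96% of all tested loci. That share rests on 2 genes of a short list, chosen with earlier results of these data known. UBR4, which encodes a large E7-binding ubiquitin ligase, had 17.5, 18.3 and 18.2 FPKM in circ_0005358 libraries and 25.05, 26.5 and 27.3 FPKM in vector libraries (-0.52, limma adjusted p 0.00504). UBE3A, which encodes the ligase that E6 uses against p53, had 9.002, 8.38 and 8.62 FPKM in circ_0005358 libraries and 11.9, 11.7 and 11.6 FPKM in vector libraries (-0.40, limma adjusted p 0.00981). UBR4 kept its call when any 1 library was left out, and UBE3A lost it without vector replicate 1 and without vector replicate 2. With vector replicate 3 and circ_0005358 replicate 2 omitted together, both lost it (limma adjusted p 0.0689 for UBR4 and 0.0913 for UBE3A). ZER1, which encodes another E7-binding ligase subunit, had a log2 fold change of 0.34 and a limma adjusted p of 0.0550, and KDM6A one of -0.18. Viral transcripts were not analysed here.

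**Figure D4:**
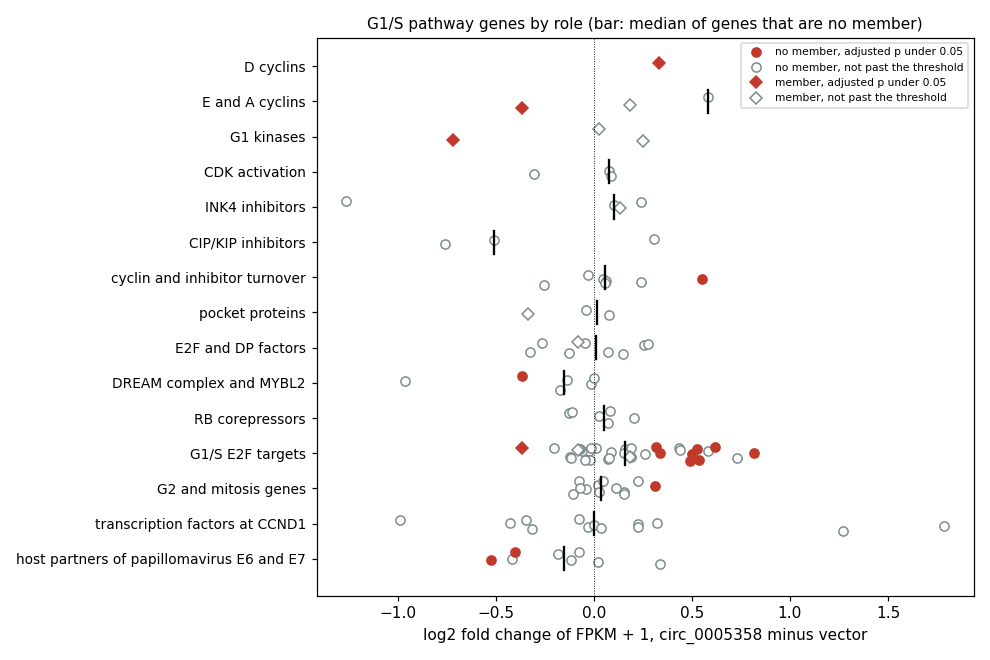
Log2 fold change of FPKM + 1 (circ_0005358 minus vector) of the tested genes of 15 lists ordered by role, with diamonds for the 10 genes of the axis, circles for the others, filled symbols for an adjusted p under 0.05 and bars for the median of the others. The filled circles of the G1/S E2F targets all lie to the right of 0 and the filled diamond of CCNE1 to the left.

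Genes whose log2(FPKM + 1) followed each called gene most closely over the 6 libraries were listed by Pearson correlation among 8568 tested protein-coding loci with a single name. These are descriptions over 6 points that share the same libraries and the same difference between groups. STEAP2 (r = 0.996), TBX3 (0.993) and CTGF (0.992) were nearest to CCND3. IGFBP3 (r = 0.997), TTC7B (0.995) and RNF115 (0.993) were nearest to CCNE1. SLCO4A1 (r = 0.996), SLC38A2 (0.995) and PERP (0.995) were nearest to CDK6. An r above 0.95 was reached by 126 loci for CCND3, 81 for CCNE1 and 281 for CDK6.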

How the data were processed

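The authors deposited 1 table of FPKM values for 6 SiHa libraries of polyA RNA, with 35544 loci. Trimmomatic, HISAT2 and genome build hg19 were used, per the submitters' processing notes. Which program and annotation gave the FPKM values is not given in the sources used here. Rows are assembled loci and hold no coordinates, so positions are those of GENCODE 29 on GRCh38. The labels spell the circular RNA's name in differing ways, taken to mean the same RNA. Its level was not analysed here.

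The table has no counts, so no counting interval was drawn. Two-sided tests by limma 3.58.1 (R 4.3.3), with its variance trend, took log2(FPKM + 1) of loci with at least 1 FPKM in 3 libraries. The test was also run on simulated data with independent noise and set changes larger than those of CCND3, CCNE1 and CDK6. That run therefore cannot speak for calls of their size. Exact permutation tests used scipy 1.17.1. Genes, lists and members were chosen with earlier results of these data known. All 10 genes are named. Of each list, up to 6 genes past the threshold and up to 2 others by smallest p are named, with every gene of the D cyclin, INK4, CIP/KIP, pocket protein and E2F lists. CDK3, MNAT1, SKP1, LIN37, RRM2, CHAF1B, FEN1, PRIM1, CDC25B, PLK1 and CENPA stood in rows that join several genes and were left out. Alternatives were pseudocounts of 0.5 and 0.1, 2 other filters, 3 other scalings, no variance trend, a replicate block and omitted libraries. Rescaling to the mean sum, and omitting vector replicate 3 with circ_0005358 replicate 2, were chosen after the data were seen, those 2 libraries because they stood apart in loci above 0 and in implied depth.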

Additional observations from a re-analysis of the deposited data

How the results depend on the processing

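CCND3 and CCNE1 kept their direction under the 16 alternatives run, and CDK6 under 15, since it does not reach the filter of at least 5 FPKM in 3 libraries and was not tested there. CCND3 missed the threshold at a log2 fold change of 0.33 with no filter and with the replicate block, 0.34 with libraries rescaled to a sum of 1e+06, 0.30 under quantile normalization, 0.30 when rescaled to the mean sum, 0.29 to 0.38 without 1 library and 0.29 without vector replicate 3 and circ_0005358 replicate 2. CCNE1 missed it at -0.37 with no filter and with the block, -0.43 to -0.30 without 1 library, and -0.30 without those 2 libraries. CDK6 stayed past it at -0.77 to -0.67 without 1 library and missed it at -0.70 without both. Of the 9 tested genes, 1 passed with no filter, with the block and without any 1 library, and 0 without both. The G1/S E2F targets called were 2 with the block, 4 to 7 without 1 library and 1 without both. Over all loci, 1171 calls became 591 with no filter, 259 with the block, 485 to 761 without 1 library and 198 without both. The higher share of the calls, 56.4%, was 48.4% after rescaling to the mean sum, 51.4% under quantile normalization, and 45.7% (509 higher, 606 lower) after rescaling to a sum of 1e+06, where the pseudocount also weighs less. With the block, MCM6 and MCM7 kept their calls and MCM4, ORC1, MCM5, CDC45, CHAF1A, LIG1, UBR4 and UBE3A lost theirs.

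Same-numbered libraries correlated at 0.0644, 0.0481 and 0.0781 in their deviations, all under 0.1, so the numbers were not taken as pairs, although each library correlated best with its own number. Omitting a library also leaves fewer samples.

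Values that turned sign did not pass the test. CDK2 was -0.010 when rescaled to a sum of 1e+06 or to the mean sum, -0.026 under quantile normalization, and -0.0050 (vector replicate 1) to 0.050 without 1 library. CDKN2A ranged between -0.035 (circ_0005358 replicate 2) and 0.28 without 1 library, and was -0.046 without both. E2F1 was -0.35 without vector replicate 1, 0.036 without vector replicate 2, 0.080 without vector replicate 3, 0.082 without circ_0005358 replicate 1, 0.0019 without circ_0005358 replicate 2 and 0.16 without both. RBL1 ranged between -0.0050 (vector replicate 3) and 0.18 without 1 library and was -0.016 without both, and RBL2 ranged between -0.16 and 0.043 (vector replicate 2). Without vector replicate 1, CDKN2D was -0.20, CDKN1B -0.32 and E2F2 -0.14. CDKN1B was -0.05 without circ_0005358 replicate 1, and E2F7 was 0.032 without circ_0005358 replicate 3. The other ends of their ranges were 0.57 for CDKN2D, 0.56 for E2F2, -0.63 for E2F7 and 0.90 for CDKN1B, which was 1.13 without both. The cause was not tested. Summing the rows of a symbol was not run, since each of the 10 genes has 1 row. FPKM without counts gives no counting error for low genes such as CCND1 and CDK6.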
